A study of Mus musculus with 2 samples.

Results

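The cells described here are macrophages of a mouse tumor that carried the most RNA of 4 genes together: Fcrls, Cx3cr1, Gpr34 and Stab1. They were chosen by their measured values. A barcode was an eligible phagocyte when it held at least 3000 unique molecular identifiers (UMIs, each 1 captured RNA molecule), at most 15% mitochondrial UMIs and at least 3 of the 4 phagocyte genes Csf1r, Cd68, Ctss and Fcgr3. It also had to hold at most 1 UMI of the endothelial gene Cdh5, 2 of the pericyte gene Rgs5 and 3 of the fibroblast gene Col1a1. The top 10% of the eligible phagocytes of both libraries together, ranked by the summed UMIs of the 4 genes per 10000 UMIs of the cell, were the members. There were 1532 of them among 15319 eligible phagocytes and 23792 barcodes in all.

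The tumors were syngeneic fibrosarcomas, grown under the skin of wild-type (WT) C57BL/6 mice, and the age of the mice, their number and the tumor line are not stated in the labels. The dissociated cells of both groups had been freed of red cells. Cells held by a magnetic column are called iron-positive and those that ran through it iron-negative. Each fraction gave 1 droplet single-cell RNA library, of 129921053 UMIs for the iron-positive and 132796517 UMIs for the iron-negative cells. A difference between the fractions thus compares 1 library with 1 other, without replicates and without p-values, and the files hold no measure of iron. Intervals are exact 95% intervals that cover counting error only. The libraries shared 85 barcode sequences, of which 25 were eligible in both and 0 were members in both.

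Macrophages in tissues carry out clearance of dying cells and debris, and their state follows local signals. Microglia, the macrophages of the brain, are known for high Fcrls, Cx3cr1 and Gpr34, and transforming growth factor beta (TGF-beta) is known to maintain that set of genes. Tumor macrophages derive largely from blood monocytes, which carry Ly6c2 and Plac8 and lose them as they mature. Cells that take up iron or heme are known to induce Hmox1, which degrades heme, and Slc40a1, the iron exporter ferroportin.

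The 4 genes that chose the members have different roles. Fcrls (ENSMUSG00000015852, chromosome 3, 87250758 to 87263738 on the minus strand of mm10) encodes an Fc receptor-like scavenger receptor. Cx3cr1 (ENSMUSG00000052336, chromosome 9, 119901616 to 120069879, minus strand) encodes the receptor of the chemokine fractalkine. Gpr34 (ENSMUSG00000040229, chromosome X, 13632089 to 13640858, plus strand) encodes a lysophosphatidylserine receptor, and Stab1 (ENSMUSG00000042286, chromosome 14, 31139013 to 31168641, minus strand) encodes stabilin-1, a scavenger receptor. Their promoters are shown because these genes define the cells, and 3 of the 4 had an entry in the RefSeq promoter table of build GRCm38.p6. Each runs 5′ to 3′ on the gene's strand over 300 bases, from 250 before the transcript start to 50 after it, and capitals mark GAGGAA or its reverse complement, a core motif bound by the macrophage factor PU.1.
Fcrls: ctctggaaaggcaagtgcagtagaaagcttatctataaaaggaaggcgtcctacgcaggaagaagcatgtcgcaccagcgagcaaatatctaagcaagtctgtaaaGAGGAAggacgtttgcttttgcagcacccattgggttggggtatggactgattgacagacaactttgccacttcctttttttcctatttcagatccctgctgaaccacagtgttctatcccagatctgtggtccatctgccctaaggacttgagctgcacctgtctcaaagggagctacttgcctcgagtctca
Cx3cr1: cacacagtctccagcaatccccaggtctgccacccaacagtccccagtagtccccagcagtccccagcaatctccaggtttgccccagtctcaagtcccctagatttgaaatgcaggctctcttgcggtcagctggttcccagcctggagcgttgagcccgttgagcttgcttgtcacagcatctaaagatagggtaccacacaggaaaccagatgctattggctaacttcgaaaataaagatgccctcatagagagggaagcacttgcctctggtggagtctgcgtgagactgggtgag
Stab1: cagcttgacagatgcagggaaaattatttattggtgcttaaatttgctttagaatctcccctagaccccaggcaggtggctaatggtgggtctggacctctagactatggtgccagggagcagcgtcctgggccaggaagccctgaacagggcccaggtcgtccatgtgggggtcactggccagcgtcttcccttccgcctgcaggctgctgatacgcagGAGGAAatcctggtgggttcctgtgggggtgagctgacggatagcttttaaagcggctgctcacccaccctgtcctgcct
They lie at chr3:87263475-87263774, chr9:120068247-120068546 and chr14:31168592-31168891. GAGGAA was present once in the Fcrls and once in the Stab1 window, on either strand, and not in the Cx3cr1 window. It was present in 28.3% of the 32851 promoters of the table. Of the 15 genes that ranked as higher in the members, 12 genes had a promoter there. A match in any promoter of the gene was found for 5 of these 12 genes. Rnase4, Scoc and Pdgfa had more promoters than the rest, so this share of genes cannot be set against the share of promoters. Spi1, which encodes PU.1, had 367 CPM (the gene's UMIs in a group, scaled to the same total for every group) in iron-positive members and 318 in the other iron-positive phagocytes, and 367 CPM in iron-negative members and 364 in the other iron-negative phagocytes.

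The values that chose the members are given as a description only. Fcrls had 553 CPM in iron-positive members and 56.7 in the other iron-positive phagocytes, against 602 and 121 CPM in the iron-negative library. Cx3cr1 had 831 and 114 CPM in iron-positive members and others, and 736 and 191 CPM in iron-negative members and others. Stab1 had 713 and 196 CPM in the same iron-positive groups, and 768 and 292 CPM in the iron-negative groups. Gpr34 was the least abundant, with 91.8 and 19.9 CPM in iron-positive members and others, and 90.6 and 28.3 CPM in iron-negative members and others. Cx3cr1 gave 38.0% of the score's UMIs in iron-positive members, Stab1 32.6%, Fcrls 25.2% and Gpr34 4.20%, and Gpr34 was the top gene in 0% of iron-positive and 0.169% of iron-negative members. In iron-negative members the shares were 35.0% for Stab1, 33.5% for Cx3cr1, 27.4% for Fcrls and 4.12% for Gpr34.

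Members differed among themselves in which of the genes they showed. With every cell thinned to 3000 UMIs, all 4 genes were detected in 12.9% of iron-positive members, 3 in 45.1%, 2 in 34.6% and 1 in 7.43%. The shares in iron-negative members were 13.9% for 4 genes, 51.6% for 3, 29.3% for 2 and 5.16% for 1. At full depth, 49.7% of iron-positive and 59.9% of iron-negative members showed all 4. Fcrls was found in 72.0% (67.0 to 76.6) of thinned iron-positive members, 11.1% (10.3 to 11.8) of the other iron-positive phagocytes and 0.935% (0.193 to 2.71) of 321 stromal barcodes, which should lack it. The stromal barcodes are those with the endothelial, pericyte or fibroblast gene above its limit and fewer than 2 of the phagocyte genes. Their median depth was 14109 UMIs and that of iron-positive members 11598. At full depth Fcrls was found in 90.9% of iron-positive members, 24.9% of the others and 2.18% of the stromal barcodes.

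The score was continuous, with no gap at the limit. The lowest member score was 16.149 and the highest score outside was 16.144, and 321 members lay within 10% above the limit and 380 other phagocytes within 10% below it. The median score was 4.27 over all eligible phagocytes, and 1968 of them scored 0. The members are a range at the end of this distribution and not a separate cluster.

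**Figure D1:**
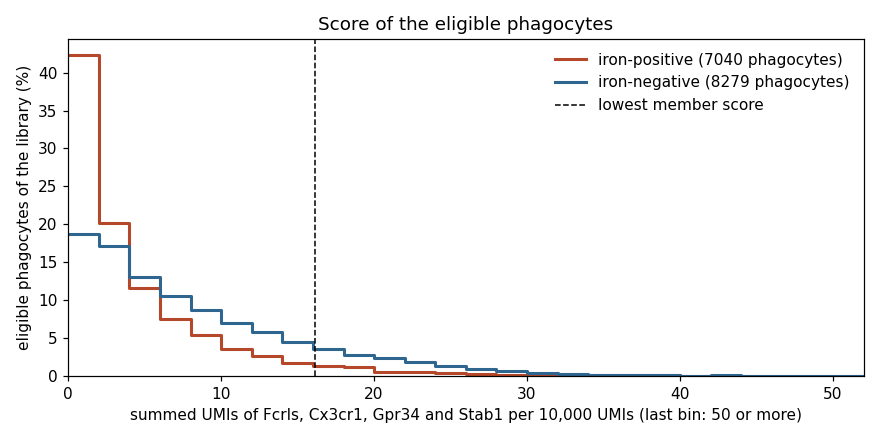
Share of each library's eligible phagocytes (y axis, percent) by summed UMIs of the 4 genes per 10000 UMIs (x axis, bins of 2), with a line for the iron-positive and one for the iron-negative library. The dashed line is the lowest member score, and 4.97% of iron-positive and 14.3% of iron-negative phagocytes lie above it.

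The markers were those of macrophages. The 12 macrophage markers, which include Adgre1, Mertk, C1qa and Mrc1, were all detected in both sets of members and summed to 27718 CPM in iron-positive members and 643 CPM in iron-positive stromal barcodes. They summed to 29771 CPM in iron-negative members. The list holds the gate genes and so repeats part of the choice. Markers of T or NK cells summed to 6.17 CPM in iron-positive members (6 of 12 detected, Cd3d, Cd3g and Trac at 0) and 8.17 CPM in iron-negative members (11 of 12). Those of B or plasma cells summed to 4.74 CPM (3 of 7, Cd79a and Pax5 at 0) and 5.72 CPM (3 of 7), and those of mast cells to 2.14 CPM (3 of 7) and 1.67 CPM (5 of 7). Erythroid markers summed to 0.712 CPM (2 of 6, Alas2 at 0) and 0.0556 CPM (1 of 6). Neutrophil markers summed to 37.2 CPM and 32.6 CPM (5 of 8 in each, Retnlg, Camp and Ngp at 0), and those of conventional dendritic cells to 28.9 CPM (9 of 10) and 26.8 CPM (10 of 10). Plasmacytoid dendritic cell markers summed to 768 CPM (4 of 6) and 737 CPM (5 of 6), and were at 1613 CPM in iron-positive stromal barcodes. Osteoclast markers summed to 183 CPM and 197 CPM (5 of 6 in each, Calcr at 0). Endothelial markers summed to 72.8 CPM (8 of 8) and 33.6 CPM (7 of 8), and those of pericytes or smooth muscle to 19.5 CPM (8 of 8) and 13.002 CPM (4 of 8). In iron-positive stromal barcodes the endothelial markers summed to 2961 CPM and the pericyte markers to 2509 CPM. Of the genes known for microglia, Sall1 was at 0 UMIs in all eligible phagocytes, Siglech had 1 UMI in the members of each fraction, and Tmem119 had 87.8 CPM in iron-positive and 95.6 CPM in iron-negative members. The cells are called here by their genes and are not named microglia.

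The first comparison asked how the members fell between the fractions. Members made up 350 of 7040 eligible phagocytes in the iron-positive library (4.97%, 4.48 to 5.51) and 1182 of 8279 in the iron-negative library (14.3%, 13.5 to 15.05). The ratio of the shares was 0.348 (0.308 to 0.393), so the iron-positive fraction held 2.87 times fewer of them per phagocyte. The ratio was lower toward the high end of the score. In 10 equal bins of the pooled score (deciles) from low to high, the share of iron-positive over that of iron-negative phagocytes was 3.34, 2.27, 1.55, 1.16, 1.18, 0.860, 0.730, 0.587, 0.424 and 0.348. It was below the bin before in 8 of 9 steps, the exception being the fifth bin. Depth differed between the libraries, with a median of 11598 UMIs and 3424 genes in iron-positive members and 14405 UMIs and 3859 genes in iron-negative members. With every cell thinned to 3000 UMIs before scoring, the ratio was 0.383. The share is one of phagocytes, and a depletion of members cannot be told apart from a gain of other phagocytes.

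The second comparison set the members against the other eligible phagocytes inside each library. Of 9003 genes measured (at least 5 CPM on average, the 4 rule genes left out), 28 (0.311%) were at least 2-fold higher in the members of both libraries and 115 (1.28%) at least 2-fold lower. At 1.5-fold these were 190 genes (2.11%) and 241 genes (2.68%). The median log2 ratio of all measured genes was 0.16 in the iron-positive and 0.09 in the iron-negative library. Past 1.5-fold in both libraries, 8 of 20 genes of the microglia and TGF-beta list were higher in members, and 12 of 17 monocyte genes, 15 of 29 hypoxia and glycolysis genes and 7 of 19 chemokine genes were lower.

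Ranked by the smaller of the log2 ratios in the 2 libraries, Pmepa1, a feedback inhibitor of TGF-beta signaling, ranked first. It had 784 CPM in iron-positive members and 244 in the other iron-positive phagocytes (3.21-fold, log2 ratio 1.68, 1.63 to 1.74). In the iron-negative library it had 880 CPM in members and 378 in others (2.33-fold, log2 ratio 1.22, 1.19 to 1.25). P2ry12, the ADP receptor by which microglia sense injury, had 76.4 and 26.8 CPM in iron-positive members and others, and 83.3 and 38.3 CPM in iron-negative members and others. Ptgs1, which encodes cyclooxygenase-1, had 182 and 52.4 CPM in iron-positive members and others, and 189 and 88.7 CPM in the iron-negative groups. Each of these genes was thus higher in members of both libraries, and the contrast was wider in the iron-positive one.

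Other genes named by size were Igfbp4, which binds insulin-like growth factors (log2 ratios of 1.38 in the iron-positive and 1.17 in the iron-negative library), the laminin receptor subunit Itga6 (1.60 and 1.16), the sialic acid-binding lectin Cd33 (1.48 and 1.13) and the transcription factor gene Sox4 (1.08 and 1.25). To these came the ribonuclease Rnase4 (1.29 and 1.07), the sialic acid lyase Npl (1.04 and 1.24), the secreted glycoprotein Olfml3 (1.60 and 0.995) and the growth factor Pdgfa (1.27 and 0.90). Scoc (1.23 and 1.01), Pxdc1 (1.41 and 0.90) and Prune2 (1.34 and 0.86) were higher as well. Some of these genes were found in stromal barcodes too. In thinned iron-positive stromal barcodes Pmepa1 was found in 46.1%, Igfbp4 in 34.3% and Olfml3 in 13.1%. The shares were 35.6%, 24.9% and 9.79% of the other iron-positive phagocytes, and 82.9%, 54.6% and 26.9% of iron-positive members. P2ry12, Ptgs1 and Cd33 were found in 0.312%, 3.12% and 0% of these stromal barcodes. Of the 20 measured genes of the microglia and TGF-beta list, 8 were past 1.5-fold higher in both libraries (among them P2ry12, P2ry13, Olfml3, Slco2b1, Pmepa1, Bin1 and Cd33) and 0 lower, with a list median of 0.49 and 0.53. The remaining members of that list included Trem2 (0.12 and 0.32) and Cst3 (0.05 and -0.03), which were near equal. In the TGF-beta pathway list, the receptor genes Tgfbr1 (0.85 and 0.80) and Tgfbr2 (0.74 and 0.62) and Pmepa1 were past 1.5-fold higher among 17 measured genes. Thbs1, an activator of latent TGF-beta, was lower (-1.09 and -0.90), and the ligand gene Tgfb1 had 0.39 and 0.21.

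**Figure D2:**
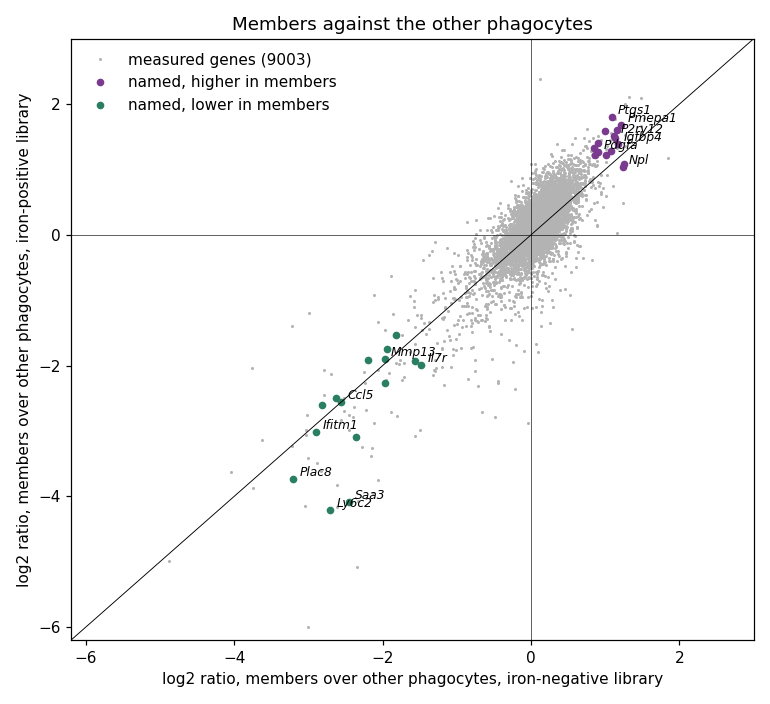
Log2 ratio of members over other phagocytes for each of 9003 measured genes in the iron-positive library (y axis) and the iron-negative library (x axis), with the diagonal drawn. The named genes higher in members lie between 0.86 and 1.80 on both axes, and Ly6c2 reaches -4.21 in the iron-positive library.

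Genes of uptake, adhesion and lipid mediators were in part higher. For comparison, 2.11% of all 9003 measured genes were past 1.5-fold higher in both libraries and 2.68% lower. Of 14 measured genes of apoptotic cell uptake, the integrin subunit Itgb5 (0.90 and 0.61) and the engulfment gene Elmo1 (0.996 and 0.708) were past 1.5-fold higher and 0 were lower. Of 18 adhesion genes, Itga6, Itgb5 and Vcam1 (1.35 and 0.73) were past it, while Itgax (-0.89 and -0.89) and Itgb7 (-2.12 and -1.92) were lower. Of 14 prostaglandin and leukotriene genes, Ptgs1, the prostaglandin D synthase gene Hpgds (1.19 and 0.84) and Alox5 (0.63 and 0.95) were higher. Ptgs2, the inducible cyclooxygenase-2, was lower, at 50.8 CPM in iron-positive members and 147 in the other iron-positive phagocytes, and 32.6 and 115 CPM in the iron-negative groups. The receptor genes P2ry13 (1.53 and 1.26) and Gpr183 (0.78 and 0.65) were higher and P2ry14 (-0.66 and -0.83) lower among 15 nucleotide and lysophospholipid receptor genes. Of 36 transcription factor genes, Mef2c (0.99 and 0.70) was past 1.5-fold higher, and Irf7, Egr1 and Egr2 past it lower. The creatine synthesis gene Gatm had 661 and 263 CPM in iron-positive members and others, and 792 and 469 CPM in iron-negative members and others. The complement genes C1qa, C1qb and C1qc had log2 ratios between 0.00 and 0.46, and none of the 5 measured Fc receptor genes was past 1.5-fold.

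Monocyte genes were the lowest group. Of 17 measured, 12 were past 1.5-fold lower in both libraries and 0 higher, with a list median of -2.22 and -1.57. Plac8 had 11.4 CPM in iron-positive members and 154 in the other iron-positive phagocytes, and 14.9 and 138 CPM in the iron-negative groups. Plac8 was not particular to phagocytes. With cells thinned, it was found in 2.86% of iron-positive members, 17.4% of the other iron-positive phagocytes and 29.0% of iron-positive stromal barcodes. Ly6c2 had 3.80 and 72.2 CPM in iron-positive members and others, and 8.50 and 55.7 CPM in the iron-negative groups. After thinning, Ly6c2 was found in 1.43% (0.466 to 3.30) of iron-positive members, 9.64% of the other iron-positive phagocytes and 0.312% (0.00789 to 1.72) of stromal barcodes. The chemokine receptor gene Ccr2, also a monocyte gene, did not follow them, with log2 ratios of 0.07 and -0.10. Lyz2 was above 0 in both libraries (0.04 and 0.27).

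Chemokines, proteases and the hypoxia response were lower as well. Ccl5 had 119 CPM in iron-positive members and 702 in the other iron-positive phagocytes, and 90.5 and 533 CPM in the iron-negative groups. Cxcl2, a neutrophil attractant, had 211 and 805 CPM in iron-positive members and others, and 160.0 and 475 CPM in the iron-negative groups. Of 19 measured chemokine genes 7 were past 1.5-fold lower in both libraries and 0 higher, and Ccl12 had 0.91 and 0.57. Over all measured genes 2.68% were past it lower and 2.11% higher. Of 10 matrix metalloproteinase genes and relatives, 6 were lower, among them Mmp9 (-2.60 and -2.82), Mmp13 (-1.90 and -1.97) and Mmp12 (-2.50 and -2.64), and Mmp2 was higher (1.37 and 1.03). Of 29 hypoxia and glycolysis genes 15 were past 1.5-fold lower, 28 were below 0 in both libraries, and the medians were -0.70 and -0.59. The medians over all measured genes were 0.16 and 0.09. Egln3, an oxygen sensor, had log2 ratios of -2.64 and -2.39, Ndrg1 -2.26 and -1.97, the glucose transporter Slc2a1 -1.24 and -0.96 and Vegfa -1.10 and -0.85. The others named by size were Ifitm1 (-3.01 and -2.89), Saa3 (-4.09 and -2.45), Ctsk (-3.09 and -2.36), Gbp2b (-1.92 and -2.19), Il1r2 (-1.74 and -1.94) and Il7r (-1.99 and -1.48).

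Interferon targets were lower in part. Of 17 type I interferon targets 5 were past 1.5-fold lower in both libraries, including Isg15 (-0.98 and -1.25) and Rsad2 (-1.59 and -1.01), and of 17 interferon gamma targets 5 were, including Nos2 (-3.88 and -3.76) and Cd274 (-0.96 and -0.88). None of either list was past 1.5-fold higher, where all measured genes had 2.11% past it higher and 2.68% lower. MHC class II genes, which present antigen to T cells, differed by library. H2-Aa had 1774 CPM in iron-positive members and 2461 in the other iron-positive phagocytes (log2 ratio -0.47), and 1983 and 3868 CPM in the iron-negative groups (-0.96). The members' levels were close in both fractions, and the other phagocytes were higher in the iron-negative one.

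Genes of resident macrophages of connective tissue differed in both directions. Of 21 measured, 9 were past 1.5-fold lower in both libraries, among them Lyve1 (-3.41 and -3.00), Cd209f (-3.38 and -2.15), Marco (-2.71 and -1.89), Ednrb (-3.61 and -2.83) and Retnla (-3.84 and -2.61). Over all 9003 measured genes 2.68% were past it lower and 2.11% higher. The carbonyl reductase Cbr2 was higher (1.19 and 0.76), and the mannose receptor gene Mrc1 had 1237 and 816 CPM in iron-positive members and others, and 1357 and 954 CPM in iron-negative members and others (0.60 and 0.51). Retnla depended on the score: without Stab1 in it the log2 ratio in the iron-positive library was 2.50. Marco in the iron-negative library likewise had 0.33 without Fcrls and 0.55 without Cx3cr1 in the score. Retnla was also irregular along the score, with 0.962 CPM in the second iron-positive decile, 185 in the eighth and 1.90 in the members. In the iron-negative library Retnla had 278 CPM in the fifth decile, 3.16 in the eighth and 10.5 in the members.

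Further lists held few genes past 1.5-fold higher, and so did the measured genes as a whole. Of these, 2.11% were past it higher in both libraries and 2.68% lower. Among 12 growth factor genes Pdgfa was higher and Vegfa, Hbegf, Areg and Nrg1 lower. Among 17 checkpoint and costimulatory ligand genes Siglec1, a sialic acid-binding lectin (54.8 and 27.4 CPM in iron-positive members and others, 58.7 and 37.1 CPM in the iron-negative groups), was higher, and the PD-1 ligand genes Cd274 and Pdcd1lg2 (-0.93 and -1.63) lower. Among 12 arginine and creatine genes Gatm was higher, and Arg1 (-1.32 and -0.62), Arg2 (-1.76 and -1.01), Nos2 and Ass1 (-1.46 and -1.48) lower. Among 19 lysosomal genes 1 was past 1.5-fold higher and 1, Ctsk, lower. Of 20 genes of lipid-associated macrophages 0 were past 1.5-fold higher and 6 lower, namely Gpnmb, Cd36, Fabp5, Lpl, Lgals3 and Mmp12. Of 13 inflammatory cytokine genes 0 were higher and 3 lower, namely Il1b (-1.23 and -1.54), Ptgs2 and Il1r2. Of 9 scavenger receptor genes 0 were higher, and Cd36 (-2.14 and -1.32) and Marco lower. Of 13 complement genes 0 were higher, and C3, C4b and Itgax lower. Of 21 immediate early and heat shock genes Egr1 alone was past it, lower (-0.60 and -1.03), and of 7 patrolling monocyte genes 0 were past it. Of 36 iron and heme genes the zinc and iron importer Slc39a8 (1.36 and 1.27) was higher, and Hmox1 and Fbxl5 (-1.31 and -0.81) lower.

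Cell cycle genes were higher in most cases. Of 26 measured, 25 were above 0 in both libraries and 3 past 1.5-fold (Mcm2, Mcm6 and Rrm2), with medians of 0.84 and 0.42. Over all 9003 measured genes the medians were 0.16 and 0.09, and 2.11% were past 1.5-fold higher in both libraries. The share of all genes above 0 in both libraries is not given here. Mki67 had 144 CPM in iron-positive members and 72.4 in the other iron-positive phagocytes, and 115 and 87.2 CPM in the iron-negative groups. Without barcodes that held 2 or more UMIs over the markers of other cell types, which left 68 iron-positive and 448 iron-negative members, the medians were 0.20 and 0.28, and Mcm2 had -0.14 in the iron-positive library.

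**Figure D3:**
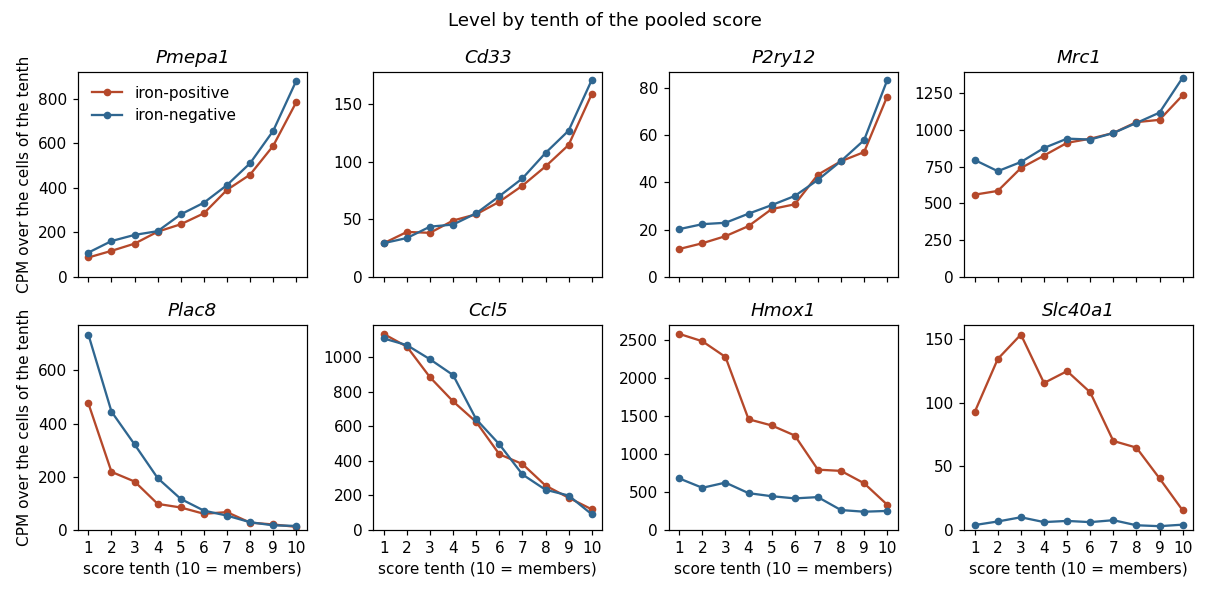
CPM (y axis) of 8 genes over the cells of each decile of the pooled score (x axis, low to high, 10 being the members), with a line for the iron-positive and one for the iron-negative library. Pmepa1, Cd33, P2ry12 and Mrc1 are highest in the members, Plac8 and Ccl5 are lowest, and the lines for Hmox1 and Slc40a1 approach each other toward the members.

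The differences in Pmepa1 and Plac8 ran along the whole score, and those of some other genes did not. H2-Aa in the iron-positive library had 2096 CPM in the lowest decile, 2843 in the fifth and 1774 in the members. Mmp12 in that library had 1471 CPM in the lowest decile, 53.6 in the ninth and 121 in the members. Pmepa1 in deciles from low to high had 86.6, 116, 149, 202, 236, 285, 390, 459, 588 and 784 CPM in the iron-positive library. In the iron-negative library it had 109, 160.3, 188, 205, 280.2, 332, 412, 510, 655 and 880.1 CPM. Each decile was higher than the one before in both libraries. Plac8 ran the other way apart from the seventh iron-positive decile, with 476, 218, 182, 97.8, 84.3, 60.6, 66.9, 27.4, 20.4 and 11.4 CPM in the iron-positive deciles and 735, 445, 322, 195, 116, 72.5, 53.7, 28.9, 17.1 and 14.9 CPM in the iron-negative deciles.

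The members were then set against 12 other gene programs, each defined as the pooled top 10% of eligible phagocytes by its own summed genes, so that lists of equal size were compared. The program of Slc40a1 and Hmox1 held 6 of 350 members in the iron-positive library (1.71%, 0.632 to 3.69) against 19.1% (18.2 to 20.1) of the other iron-positive phagocytes. In the iron-negative library it was 4 of 1182 (0.338%, 0.0923 to 0.864) against 3.40% (2.99 to 3.84). Hmox1 gave most of this sum, with 20.6 UMIs per other iron-positive phagocyte at full depth and 1.34 of Slc40a1. The program of Mmp12, Cd36, Gpnmb and Slpi held 2.57% (1.18 to 4.83) of iron-positive members and 20.2% (19.3 to 21.2) of the others, and 0.254% (0.0524 to 0.740) and 2.37% (2.03 to 2.75) in the iron-negative library. Members were most frequent in the cell cycle program, with 16.6% (12.8 to 20.9) of iron-positive members and 9.31% (8.63 to 10.0) of the others, and 13.5% (11.6 to 15.6) and 9.74% (9.06 to 10.4) in the iron-negative library. The heat shock program held 12.3% (9.04 to 16.2) and 10.8% (10.1 to 11.6) in the iron-positive library, intervals that overlap. The program of Mmp9, Pdpn, Syngr1 and Arg1 held 0.857% and 14.5% of iron-positive members and others, and 0.846% and 7.72% in the iron-negative library. That of Il1r2, Ifitm1, Ltb4r1 and Il1b held 1.43% and 11.2%, and 0.677% and 10.8%, in the same order. That of Ly6c2, Plac8, Ccr2 and Vcan held 2.57% and 9.93%, and 2.96% and 11.6%. The MHC class II program held 2.57% and 7.17%, and 3.21% and 14.2%. That of Cd209f, Cd209g, Cd163 and Lyve1 held 6.57% and 14.9%, and 4.74% and 6.41%. The type I interferon program held 5.43% and 12.6%, and 4.31% and 8.69%, and the interferon gamma program 7.71% and 9.51%, and 6.77% and 11.1%. The program of Retnla, Cbr2, Mgl2 and Ccl24 held 10.3% of iron-positive members and 8.15% of the others. In the iron-negative library it held 8.88% and 11.9%, so the order differed by library. Of the members, 48.9% (43.5 to 54.2) in the iron-positive and 54.7% (51.8 to 57.6) in the iron-negative library were in none of the 12 programs.

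**Figure D4:**
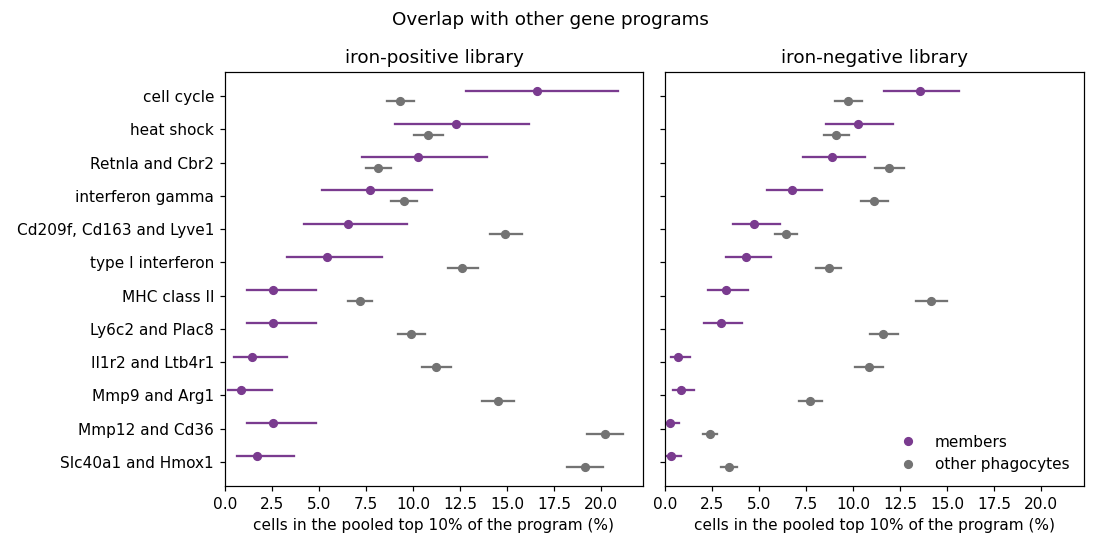
Share of cells in the pooled top 10% of each program (x axis, percent, dots with exact 95% binomial intervals), members above other phagocytes, for the iron-positive library on the left and the iron-negative library on the right. Members lie below the others for Slc40a1 and Hmox1 in both panels and above them for the cell cycle.

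The third comparison was that of the study's design, iron-positive against iron-negative, inside the members. Of the 9003 genes, 49 (0.544%) were at least 2-fold higher in iron-positive members and 9 (0.1%) at least 2-fold lower, and at 1.5-fold 149 (1.66%) and 77 (0.855%). In the other phagocytes the counts over the same 9003 genes were 101 and 3 at 2-fold, and 213 and 55 at 1.5-fold, so more genes were past the fold lower in members than in the others. Most of these were scarce genes. Among the 3048 genes with at least 50 CPM, 4 were at least 2-fold higher and 1 at least 2-fold lower in iron-positive members, against 27 and 0 in the other phagocytes of the same libraries. At 1.5-fold the counts among these genes were 16 and 3 in members and 61 and 17 in the other phagocytes. The sums rest on 4215052 UMIs of iron-positive and 17997610 of iron-negative members, and on 82973340 and 105882471 UMIs of the others.

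Hmox1, Slc40a1, Cd163 and the ferritin genes differed less between the fractions in members than in the other phagocytes, while most iron and heme genes were under 1.5-fold in both. Hmox1 had 332 CPM in iron-positive members and 250 CPM in iron-negative members (log2 ratio 0.41, 0.32 to 0.50), against 1660 and 409 CPM in the other iron-positive and iron-negative phagocytes (2.02). The difference of the 2 log2 ratios was -1.61 (-1.70 to -1.52). Slc40a1 had 15.4 CPM in iron-positive members and 4.11 CPM in iron-negative members (1.91, 1.40 to 2.41), from 65 and 74 UMIs, against 108 and 5.78 CPM in the others (4.22), a difference of -2.31 (-2.80 to -1.82). Slc40a1 was found in 4.29% (2.42 to 6.97) of thinned iron-positive members, 13.1% (12.3 to 13.96) of the other iron-positive phagocytes and 0.312% of stromal barcodes, and at full depth in 8.57%, 24.1% and 4.36%. Both genes were thus higher in iron-positive members, by less than in the remaining phagocytes.

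Ferritin, the iron store, was near equal in members. Fth1 had 12961 CPM in iron-positive and 12590.0 CPM in iron-negative members (0.04, 0.03 to 0.06), against 24664 and 16727 CPM in the others (0.56). Ftl1 had 4981 and 5013 CPM in iron-positive and iron-negative members (-0.01, -0.03 to 0.01), against 9321 and 5745 CPM in the others (0.70). Cd163, the hemoglobin receptor, had 10.7 and 12.2 CPM in iron-positive and iron-negative members (-0.18, -0.69 to 0.27) and 55.5 and 14.2 CPM in the others (1.97). Over the alternatives its log2 ratio ranged from -0.71 to 1.44 in members and from 1.15 to 2.07 in the others, ranges that overlap. Slc48a1, a heme transporter, had log2 ratios of 0.17 in members and 1.28 in the others. Tfrc, the transferrin receptor, had 23.5 and 19.1 CPM in iron-positive and iron-negative members (0.302, -0.04 to 0.62) and 16.1 and 18.4 CPM in the others (-0.19). Of 36 measured iron and heme genes, 1 (Slc40a1) was past 1.5-fold higher in iron-positive members and 8 in the other iron-positive phagocytes, with 0 past it lower in either. Of all 9003 genes, 149 (1.66%) were past it higher in members and 213 in the others, and 77 and 55 were past it lower. The list's medians were -0.03 in members and -0.10 in the others, against -0.02 and -0.10 over all genes. For Tfrc the ratios had opposite signs, and the interval in members held 0.

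Targets of NRF2, the regulator of the response to oxidants and heme, also differed less. Of 16 measured, 1 was past 1.5-fold higher in iron-positive members and 11 in the other iron-positive phagocytes, with medians of 0.05 and 0.91, where 149 and 213 of all 9003 genes were past it. Gclm, of glutathione synthesis, had 59.5 and 36.7 CPM in iron-positive and iron-negative members (0.70) and 192 and 42.0 CPM in the others (2.19). Prdx1, a peroxiredoxin, had log2 ratios of 0.33 in members and 1.52 in the others, Gstm1 0.308 and 2.002, Srxn1 0.26 and 1.06, and Slc7a11 0.09 and 1.01. The median over all measured genes was -0.02 in members and -0.10 in the others.

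The Hmox1 ratio moved with the choice of members and with subtraction of an assumed free RNA profile. That profile was the sum of all barcodes of the library, and the 10% was a setting, so neither was measured. By construction the subtraction lowers genes that are scarcer in the members than in the whole library. Its log2 ratio between the fractions was 1.002 with the top 20%, 1.19 with a score without Fcrls and, for the same members, -0.03 with 10% free RNA subtracted, and that of Slc40a1 was 3.06, 3.25 and 1.13. Hmox1 differed along the score as well, with 2584 CPM in the lowest iron-positive decile and 678 CPM in the lowest iron-negative decile, and 615 and 239.7 CPM in the decile just below the members.

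**Figure D5:**
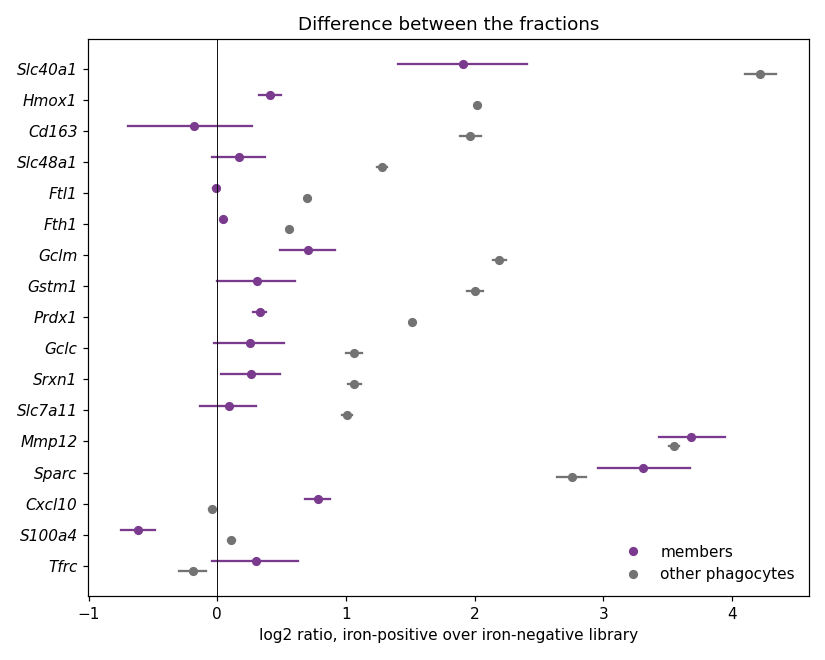
Log2 ratio of the iron-positive over the iron-negative library (x axis, dots with 95% counting intervals) for 17 genes, members above other phagocytes. Members lie nearer 0 than the others for the iron, heme and NRF2 genes from Slc40a1 to Slc7a11, and on the same side at over 2 for Mmp12 and Sparc.

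Among the genes named by size, Mmp12 and Sparc differed most between the fractions inside the members. Mmp12, macrophage elastase, had 121 CPM in iron-positive members and 9.45 CPM in iron-negative members (3.68, 3.43 to 3.94), against 688 and 58.9 CPM in the others (3.55). It was found in 10.6% (7.55 to 14.3) of thinned iron-positive members and 9.03% (6.13 to 12.7) of iron-positive stromal barcodes, shares whose intervals overlap. The Mmp12 UMIs per thinned cell were 0.383 in these members and 0.115 in the stromal barcodes. At full depth Mmp12 was found in 30.6% and 24.0%. Sparc, a matrix protein gene, had 52.4 and 5.28 CPM in iron-positive and iron-negative members (3.31) and 48.9 and 7.24 CPM in the others (2.75). It was found in 17.1% of thinned iron-positive members and 14.5% of the other iron-positive phagocytes, and in 99.4% of stromal barcodes. The 10 fibroblast or fibrosarcoma markers, all detected in each group, were higher in the iron-positive cells too, at 119 CPM in iron-positive members, 25.2 CPM in iron-negative members, 117 CPM in the other iron-positive phagocytes and 26.7 CPM in the other iron-negative ones. Their part in these results was not tested.

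The remaining differences were modest. Cxcl10, an interferon-induced chemokine, had 301 and 175 CPM in iron-positive and iron-negative members (0.78, 0.68 to 0.87), and 250.9 and 257.6 CPM in the others (-0.04). The difference of the ratios was 0.82 (0.72 to 0.91). Ctla2a had 65.7 and 31.7 CPM in iron-positive and iron-negative members (1.05), Egr1 78.3 and 44.3 CPM (0.82), Ccl3 65.0 and 41.7 CPM (0.64), Ptgs2 50.8 and 32.6 CPM (0.64) and Wfdc17 525 and 345 CPM (0.61). The histone genes Hist1h1b (0.80) and Hist1h4d (0.67) and the spindle gene Nusap1 (0.57) were higher too. Without barcodes holding markers of other cell types, Hist1h1b had -0.83, Hist1h4d -0.59, Nusap1 -0.54, Egr1 -0.18 and Ccl3 -0.10, and with 10% free RNA subtracted Ctla2a had -7.90. In the other phagocytes the log2 ratios as reported were larger for Ctla2a (1.81), Ccl3 (0.92) and Wfdc17 (1.44). They were smaller there for Egr1 (0.40), Ptgs2 (0.35), Hist1h1b (0.26), Hist1h4d (-0.06) and Nusap1 (-0.03). Of the 12 genes named as lower in iron-positive members, S100a4 was past 1.5-fold, with 131 CPM in iron-positive members and 201 CPM in iron-negative members (-0.62, -0.75 to -0.49). The others given here lay between -0.53 (Hdac5) and -0.39 (Gpr132), and included Neat1 (-0.42), Ccr2 (-0.41; 0.13 without barcodes holding markers of other cell types), Tmem37 (-0.45), Tbc1d14 (-0.49), Anpep (-0.44), Eaf1 (-0.44), Sertad1 (-0.43) and Trim25 (-0.41). In the other phagocytes S100a4 had 0.11, Eaf1 0.16 and Trim25 -0.03. The rest were lower there too, with Hdac5 at -0.30, Gpr132 -0.52, Neat1 -0.41, Ccr2 -0.58, Tmem37 -0.30, Tbc1d14 -0.21, Anpep -0.31 and Sertad1 -0.23. Among genes higher in members than in other phagocytes, log2 ratios between the fractions were nearer 0 for Pmepa1 (-0.17), P2ry12 (-0.12), Ptgs1 (-0.05) and Itga6 (-0.003). Among genes lower in members, Mmp12 (3.68), Mmp9 (0.82) and Ptgs2 (0.64) were higher and Ly6c2 (-1.12) lower in iron-positive members. The Ly6c2 ratio rests on 16 UMIs in iron-positive and 153 UMIs in iron-negative members.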

How the data were processed

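The values are whole-number UMI counts in 1 deposited matrix for each library, unnormalized as the values show. The submitters' processing notes name mm10 and Cell Ranger 3.1.0. The matrices' own header line carries version 5.0.0 of that software, a disagreement that the sources used here do not resolve. Gene coordinates came from GENCODE M21 of that build, in which 99.8% of 32285 gene IDs were found.

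The members, the 29 gene lists, 13 marker lists and 12 programs were chosen with earlier results of these data known, so a pattern in them is no independent support. Each group's UMIs were pooled per gene and scaled to CPM. Log2 ratios used 0.5 added to each count, and a ratio's interval is the exact conditional one for a pair of Poisson counts. Shares have Clopper-Pearson intervals, and the interval of a difference between log2 ratios is normal, from the 4 counts. Single libraries allow no test. Ties in the score were broken in a seeded random order. Thinning drew 3000 UMIs per cell, and all eligible cells reached that depth. No doublet caller was run. In its place, alternatives left out the 8% of barcodes with most UMIs, or those with 2 or more UMIs of other cell types' markers.

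Named genes were the 15 largest ratios in each direction between members and others by the smaller library (at least 50 CPM), the 12 largest in each direction between the fractions in members (at least 50 CPM in 1 fraction and 100 UMIs over both), up to 4 per list and 6 iron genes. Rule genes, gate genes, mitochondrial and ribosomal genes, numbered models and receptor segments were left out. A few genes that the rule picked are not reported here. Further list genes were named after their values were seen. The ratio and thinning steps were tested on simulated data. The software was matplotlib 3.10.9, pandas 2.3.3, scipy 1.17.1, numpy 2.4.6 and Python 3.11.15.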

Additional observations from a re-analysis of the deposited data

Results flagged for a closer look

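Phagocyte barcodes under the minimum of 3000 UMIs enter no comparison, and some reached the members' score. Of 923 such barcodes in the iron-positive library 37 did (4.01%, 2.84 to 5.48), and of 350 in the iron-negative library 38 did (10.9%, 7.80 to 14.6). Their median depths were 1737 and 2032.5 UMIs. The shares are signal in data not otherwise analysed, and they lie on the same sides as those of the deeper phagocytes, 4.97% and 14.3%.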

How the results depend on the processing

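With 1 library per fraction nothing could be left out as a replicate. No paired analysis was possible because each group has 1 sample. The ratio of member shares stayed between 0.335 and 0.389 under the other 10 score and filter alternatives, was 0.306 with the top 5% and was 0.9999 with the top 10% taken within each library, which fixes it by construction.

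Genes 2-fold higher in members numbered 28 as reported. They were 11 with cells scored at 3000 UMIs, 17 after scaling by the median ratio, 46 with genes measured from 1 CPM and 5 from 50 CPM. Genes 2-fold lower numbered 115, and 210 from 1 CPM and 34 from 50 CPM. Genes 2-fold higher in iron-positive members numbered 49, with 147 without barcodes holding other markers, 130 after thinning to 3000 UMIs, 285 from 1 CPM and 4 from 50 CPM. Genes 2-fold lower in them numbered 9 and were the least stable. They were 55 with the top 5%, 3 with the top 20%, 5 with cells scored at 3000 UMIs, 2 within each library, 4 without Fcrls or Cx3cr1, 5 without Stab1, 267 without barcodes holding other markers, 122 after thinning, 46 with 10% free RNA subtracted, 120 from 1 CPM and 1 from 50 CPM. Thinning and stricter filters leave fewer UMIs, and otherwise the cause was not tested. The alternative without barcodes holding other markers kept 5156 of 15319 phagocytes. The genes measured numbered 9003 as reported, 11327 from 1 CPM, 3048 from 50 CPM and 8975 without barcodes holding other markers. Counts under these settings thus come from gene sets of different size.

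Some named genes past 1.5-fold turned. Between the fractions in members these were Hist1h1b (-0.38 with the top 5%, -0.83 without barcodes holding other markers), Hist1h4d (-0.59), Egr1 (-0.18) and Ccl3 (-0.10, all without those barcodes). Of named genes under 1.5-fold, Nusap1 (-0.54), Ccr2 (0.13) and Tbc1d14 (0.008) turned without those barcodes. Between the fractions in members, Cd163 ranged from -0.71 to 1.44 over the alternatives and Tfrc from -0.34 to 0.35. With 10% free RNA subtracted Hmox1 had -0.03 in members, and Ctla2a -7.90 in members and -10.69 in the others. Between members and others, Marco in the iron-negative library had 0.33 without Fcrls and 0.55 without Cx3cr1, Retnla in the iron-positive library 2.50 without Stab1 and Mcm2 in the iron-positive library -0.14 without barcodes holding other markers, where Slc40a1 in the iron-negative library had 0.005. The median of NRF2 targets between the fractions ranged from -0.04 to 0.17 in members and from 0.48 to 1.01 in the others. An alternative chosen after seeing the data left the decile just below the members out of the others and turned none of these values.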
